A study of Mus musculus with 6 samples.

Results

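RNA levels of 10 histone acetylation enzymes, 6 acetyltransferases and 4 class I deacetylases, were compared between Sirt1-/- and Sirt1+/+ mouse embryonic stem cells. The genes were chosen by name: Ep300, Crebbp, Kat2a, Kat2b, Kat5 and Kat8 add acetyl groups to histones, and Hdac1, Hdac2, Hdac3 and Hdac8 remove them. All 10 were on the array, among 18193 named genes in all, and 20 of the 45101 probe sets read them. Each gene was read on its brightest probe set by the mean of the 6 arrays, and its other probe sets are given beside it.

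Both kinds of cell were R1 embryonic stem cells, a line of (129X1 x 129S1)F1 strain background, and the labels give no treatment of either. The culture medium held serum and LIF, which keeps such cells dividing undifferentiated, and the dishes were coated with gelatin. RNA of 3 Sirt1-/- and 3 Sirt1+/+ samples was labelled with biotin and read on 1 Affymetrix 3' expression array each. Each genotype has 1 named source, and nothing says that its samples were separate cultures, so the loss of Sirt1 and any other difference between the 2 sources cannot be told apart. The p-values below therefore cover only the variation among these arrays, which may be technical.

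Acetylation of lysines in histone tails loosens their contact with DNA and is read by bromodomain proteins, and it marks active promoters and enhancers. Acetyltransferases fall into families: p300 and CBP (Ep300, Crebbp) acetylate enhancers, Gcn5 and Pcaf (Kat2a, Kat2b) work within the SAGA and ATAC complexes, and Tip60 and Mof (Kat5, Kat8) belong to the MYST family. Class I deacetylases use zinc and act mostly within corepressor complexes, whereas Sirt1 is a deacetylase of another class that consumes NAD. Sirt1 has been described as acting on several of these enzymes as proteins, which an RNA measurement does not read.

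The promoters of 2 acetyltransferase genes that fell and of 1 that was higher on every Sirt1-/- array without passing the test are shown as examples. Their levels did not overlap between the genotypes, which also held for Hdac2 and Kat2b, whose windows are not shown. Each is the 250 bases before the annotated start (RefSeq, GRCm38.p6), 5' to 3', with matches to any of the searched motifs in capitals.
Ep300, chr15:81585964-81586213, plus strand: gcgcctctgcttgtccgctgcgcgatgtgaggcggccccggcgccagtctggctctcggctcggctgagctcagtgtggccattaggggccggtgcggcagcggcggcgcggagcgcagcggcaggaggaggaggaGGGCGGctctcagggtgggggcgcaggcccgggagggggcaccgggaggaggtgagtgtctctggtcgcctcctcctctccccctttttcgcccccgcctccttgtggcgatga
Kat8, chr7:127912267-127912516, plus strand: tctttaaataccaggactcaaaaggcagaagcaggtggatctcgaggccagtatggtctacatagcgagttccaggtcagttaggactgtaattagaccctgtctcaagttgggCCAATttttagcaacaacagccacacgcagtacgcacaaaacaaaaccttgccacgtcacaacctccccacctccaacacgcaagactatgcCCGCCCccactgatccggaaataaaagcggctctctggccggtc
Kat2a, chr11:100712468-100712717, minus strand: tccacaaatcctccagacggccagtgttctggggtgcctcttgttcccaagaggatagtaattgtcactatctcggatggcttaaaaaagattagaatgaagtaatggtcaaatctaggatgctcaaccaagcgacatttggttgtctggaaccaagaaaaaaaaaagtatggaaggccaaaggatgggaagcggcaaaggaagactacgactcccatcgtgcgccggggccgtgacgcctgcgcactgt
The motifs, on both strands, were the GC box GGGCGG, the CCAAT box CCAAT, the ETS motif CCGGAAG, the E-box CACGTG and the cAMP response element TGACGTCA. The Ep300 window held 1 GC box and the printed Kat8 window 1 GC box and 1 CCAAT box, and none of the 5 motifs was found in the Kat2a window. Over 32851 such windows of all genes, 32.7% held a GC box and 33.8% a CCAAT box, so these matches are common. The shares for the other motifs were 6.91% for ETS, 6.02% for the E-box and 1.55% for the cAMP response element. CpG dinucleotides numbered 25 in the Ep300 window, 10 in the printed Kat8 window and 11 in the Kat2a window, against a median of 6 over all windows. Kat8 has a second annotated start, whose window held 5 CpG dinucleotides, 1 GC box and 1 CCAAT box and is not shown. The Hdac2 window held 1 GC box. The first Kat2b window held 1 CCAAT box and its second none of the 5 motifs. In all, 8 of the 10 genes had a window in the table.

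Sirt1 itself checked the labels, with log2 levels of 8.02, 7.94 and 8.20 in Sirt1-/- cells against 10.12, 10.13 and 10.23 in Sirt1+/+ cells. Whether its probes lie inside the deletion was not examined here. Array medians ranged from 4.51 to 4.56 in Sirt1-/- and from 4.53 to 4.57 in Sirt1+/+. Poly-A controls read 7.71 to 7.97 in Sirt1-/- and 7.55 to 7.73 in Sirt1+/+. Of all genes 17.5% were called lower and 12.5% higher in limma, and 25.6% and 19.2% without the dimmest 40%. Of 10 embryonic stem cell markers 7 fell and 0 rose. Their mean log2 levels were 11.58 to 11.63 on the Sirt1-/- arrays against 11.98 to 12.01 on the Sirt1+/+ arrays. Among them Pou5f1 was higher on every Sirt1-/- array, with a log2 change of 0.10 that did not pass (limma, Benjamini-Hochberg adjusted p = 0.154). Of 9 markers of primitive and visceral endoderm 6 fell and 0 rose, with means of 4.49 to 4.68 in Sirt1-/- and 5.49 to 5.51 in Sirt1+/+. Of 10 fibroblast markers 2 fell and 0 rose, with means of 3.71 to 3.84 in Sirt1-/- and 3.89 to 3.98 in Sirt1+/+. These counts are for the brightest probe sets, where 0 markers of the 3 lists were higher at an unadjusted p under 0.05, too. A dimmer probe set of the stem cell marker Esrrb rose by 0.57 (limma over all probe sets, Benjamini-Hochberg adjusted p = 0.00545). The other probe sets of Esrrb did not pass. Dimmer ones of Klf4, Cubn, Dab2 and Sox17 fell in that fit. The part of these shifts in the results below was not tested, and in bulk RNA fewer cells of a type and less RNA per cell cannot be told apart.

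In cells without Sirt1, transcripts of Ep300, Kat8, Hdac2 and Hdac3 fell and none of the 10 rose past the test in limma, where 3 were higher at an unadjusted p under 0.05. The changes were modest: on the linear scale Hdac2 fell by 12.3% and Ep300 fell by 21.8%, the ends of the range. The other 6 genes did not pass, and among them Kat2a, Kat2b and Hdac1 were higher on every Sirt1-/- array than on any Sirt1+/+ array. In the fit over all probe sets, dimmer probe sets of Kat2a and Kat2b rose by 0.31 and 0.33, and 1 of Crebbp fell by 0.35. The brightest ones of Hdac2 and Kat8 did not pass there, so the calls depend on the probe set and on the fit. Calls of genes are from limma on the log2 levels, at a threshold of 0.05 on the p-value adjusted (Benjamini-Hochberg) over all 18193 of them, and those of other probe sets from the same fit over all probe sets. The 4 called genes of 10 stand against 30.0% of all genes called in either direction, 17.5% lower and 12.5% higher. All 10 genes lie among the 10916 left when the dimmest 40% are set aside, and of those 44.8% were called, 25.6% lower and 19.2% higher. The groups did not overlap for 7 of the 10, against 43.8% of all genes and 62.5% of the brighter ones. The count is thus near the background of these arrays and is no result about these enzymes as a set. Their median log2 change was -0.01, as was that of all genes. None of the 10 lies on chromosome 8, where 33.6% of the genes were called higher.

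**Figure D1:**
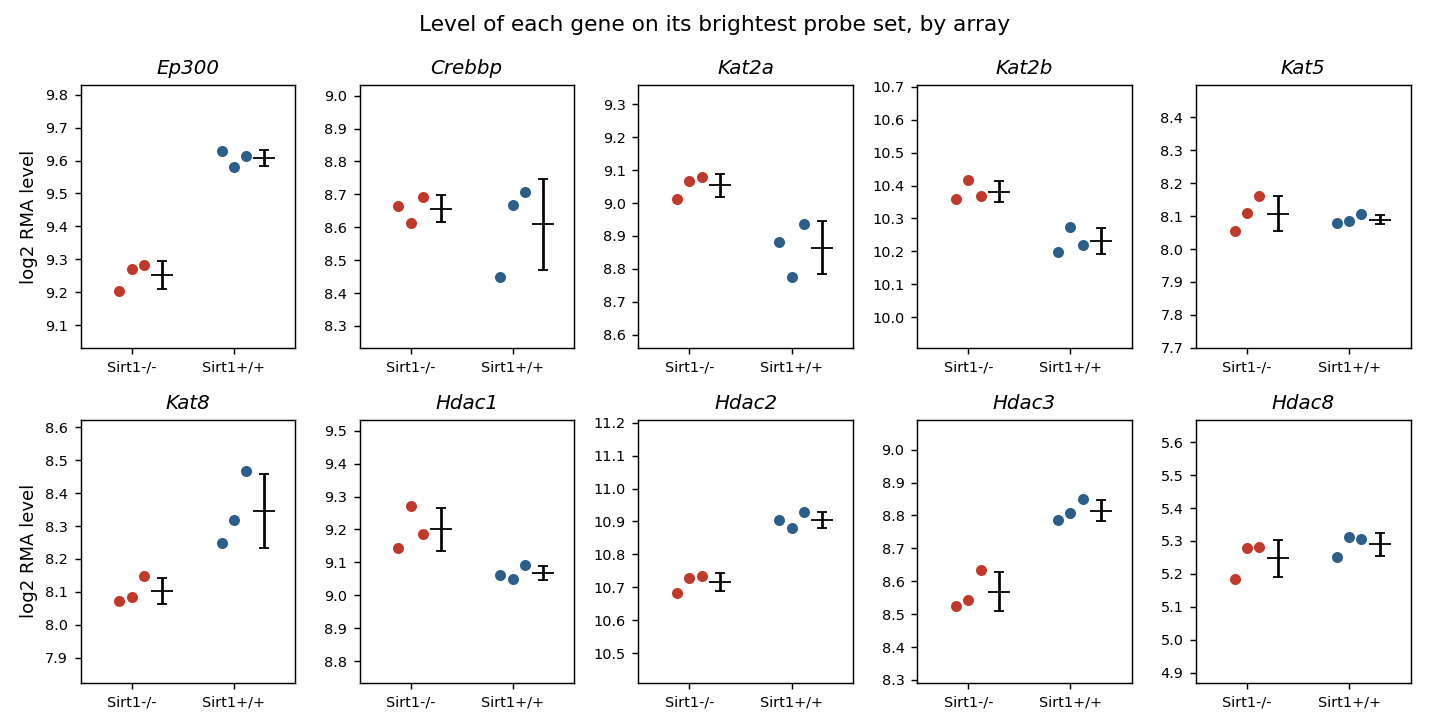
Log2 RMA level (vertical axis, each panel spanning the same 0.8 log2 units) of the 10 genes on their brightest probe sets; each point is 1 array, Sirt1-/- in red and Sirt1+/+ in blue, with the mean and SD beside them (n = 3). Points of the 2 genotypes are apart for 7 genes, with the widest gap for Ep300, and overlap for Crebbp, Kat5 and Hdac8.

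Ep300 encodes p300, a coactivator that acetylates histone H3 at enhancers. Its log2 levels were 9.20, 9.27 and 9.28 in Sirt1-/- cells against 9.63, 9.58 and 9.61 in Sirt1+/+ cells. Every Sirt1-/- array was below every Sirt1+/+ array, and the gap was several times the spread within either genotype. The means were 9.25 ± 0.04 in Sirt1-/- and 9.61 ± 0.02 in Sirt1+/+ (SD, n = 3 each), and the log2 change was -0.36 (SE 0.047, 95% interval -0.47 to -0.24; limma, Benjamini-Hochberg adjusted p = 0.00199). Ep300 has 1 probe set on the array. The two-sided exact permutation test returned p = 0.1, the lowest possible with 3 against 3 arrays, as it did for each of the 7 genes without overlap. By absolute change Ep300 ranked at 3310 of the 18193 genes, the highest rank of the 10.

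Crebbp encodes CBP, the close paralogue of p300. On its brightest probe set, 1436983_at, the log2 levels were 8.66, 8.61 and 8.69 in Sirt1-/- cells against 8.45, 8.67 and 8.71 in Sirt1+/+ cells, which overlapped. The log2 change was 0.05 (95% interval -0.14 to 0.23; limma, Benjamini-Hochberg adjusted p = 0.712). On this probe set the interval leaves out a fall of the size measured for Ep300.
Its 4 probe sets did not move alike. On 1435224_at the log2 levels were 8.41, 8.47 and 8.43 in Sirt1-/- and 8.45, 8.38 and 8.49 in Sirt1+/+, a change of -0.0047. On 1434633_at they were 7.12, 7.15 and 7.28 in Sirt1-/- against 7.37, 7.65 and 7.57 in Sirt1+/+, with no overlap. That probe set fell by 0.35 on the log2 scale (95% interval -0.56 to -0.13; limma over all 45037 probe sets, Benjamini-Hochberg adjusted p = 0.0362), where 19.8% of probe sets were called. The dim 1459804_at gave 5.36 ± 0.24 in Sirt1-/- and 5.18 ± 0.18 in Sirt1+/+ (SD, n = 3 each). The transcripts that each probe set reads were not examined here, so the level of Crebbp RNA is uncertain where its probe sets disagree.

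Kat2a encodes Gcn5, the acetyltransferase subunit of SAGA and ATAC. Its log2 levels on the brightest probe set were 9.01, 9.07 and 9.08 in Sirt1-/- cells against 8.88, 8.78 and 8.94 in Sirt1+/+ cells, without overlap. The log2 change of 0.19 (SE 0.058, 95% interval 0.05 to 0.33) did not pass (limma, Benjamini-Hochberg adjusted p = 0.0503). The second probe set, 1422972_s_at, read 7.18, 7.24 and 7.26 in Sirt1-/- and 6.95, 6.76 and 7.05 in Sirt1+/+, and rose by 0.31 (limma over all probe sets, Benjamini-Hochberg adjusted p = 0.0476). The third, 1422971_at, overlapped between genotypes with a change of 0.05.

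Kat2b encodes Pcaf, which can take the place of Gcn5 in the same complexes. Its log2 levels were 10.36, 10.42 and 10.37 in Sirt1-/- cells against 10.20, 10.27 and 10.22 in Sirt1+/+ cells. All Sirt1-/- arrays were the higher ones, and the log2 change of 0.15 (SE 0.047, 95% interval 0.04 to 0.26) did not pass (limma, Benjamini-Hochberg adjusted p = 0.0561). A dimmer probe set, 1450821_at, read 6.23, 6.26 and 6.41 in Sirt1-/- and 5.99, 5.93 and 5.998 in Sirt1+/+. It rose by 0.33 (limma over all probe sets, Benjamini-Hochberg adjusted p = 0.0164). The dimmest, 1457809_at, also had all Sirt1-/- arrays higher, at 3.66 ± 0.19 against 3.29 ± 0.14 in Sirt1+/+ (SD, n = 3 each), and did not pass (limma over all probe sets, Benjamini-Hochberg adjusted p = 0.0713). The 3 probe sets of Kat2b thus had the same direction, and 1 of them passed. Read as the mean of its probe sets, Kat2b rose by 0.28 (limma, Benjamini-Hochberg adjusted p = 0.0151).

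Kat5 encodes Tip60, the catalytic subunit of the NuA4 complex, which acetylates histones H4 and H2A. The log2 levels were 8.05, 8.11 and 8.16 in Sirt1-/- cells against 8.08, 8.08 and 8.11 in Sirt1+/+ cells. The genotypes overlapped, and the log2 change of 0.02 had a 95% interval of -0.10 to 0.13 (limma, Benjamini-Hochberg adjusted p = 0.831). The second probe set overlapped likewise, with a change of 0.05.

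Kat8 encodes Mof, which acetylates histone H4 at lysine 16 within the MSL and NSL complexes, a mark that Sirt1 can remove. Its log2 levels on its 1 probe set were 8.07, 8.09 and 8.15 in Sirt1-/- cells against 8.25, 8.32 and 8.47 in Sirt1+/+ cells. The Sirt1-/- arrays were all lower, while the Sirt1+/+ arrays spread more widely (SD 0.04 in Sirt1-/- and 0.11 in Sirt1+/+, n = 3 each). Kat8 fell by 0.24 on the log2 scale (SE 0.068, 95% interval -0.41 to -0.08; limma, Benjamini-Hochberg adjusted p = 0.0378). On the linear scale it fell by 15.5%. The call was lost without each array in turn except replicate 1 of Sirt1+/+, with adjusted p up to 0.103. Without replicate 3 of Sirt1+/+ the change was -0.18.

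Hdac1 and Hdac2 encode paired deacetylases that share the Sin3, NuRD and CoREST corepressor complexes. Hdac1 had log2 levels of 9.14, 9.27 and 9.19 in Sirt1-/- cells against 9.06, 9.05 and 9.09 in Sirt1+/+ cells. All Sirt1-/- arrays were higher, and the log2 change of 0.13 (SE 0.052, 95% interval 0.0091 to 0.26) did not pass (limma, Benjamini-Hochberg adjusted p = 0.105).
Hdac2, on its brightest probe set 1445684_s_at, had log2 levels of 10.68, 10.73 and 10.73 in Sirt1-/- cells against 10.90, 10.88 and 10.93 in Sirt1+/+ cells. Every Sirt1-/- array was lower, a fall of 0.19 on the log2 scale (SE 0.044, 95% interval -0.30 to -0.08; limma, Benjamini-Hochberg adjusted p = 0.0198). This call rested on the probe set: 1449080_at read 9.38, 9.56 and 9.53 in Sirt1-/- and 9.59, 9.54 and 9.63 in Sirt1+/+, which overlapped, with a change of -0.09. The dim 1439704_at read 4.77 ± 0.35 in Sirt1-/- and 4.51 ± 0.11 in Sirt1+/+ (SD, n = 3 each). With the 3 probe sets averaged at equal weight the log2 change was -0.0065 (limma, Benjamini-Hochberg adjusted p = 0.971). In that average the dim probe set, at a change of 0.26, went against the brighter ones. The call was also lost without each array in turn except replicate 2 of Sirt1+/+, with adjusted p from 0.0504 to 0.0674.

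Hdac3 encodes the catalytic subunit of the NCoR and SMRT corepressors, which act with nuclear receptors. Its log2 levels on its 1 probe set were 8.52, 8.54 and 8.64 in Sirt1-/- cells against 8.79, 8.81 and 8.85 in Sirt1+/+ cells. Every Sirt1-/- array was lower, and the gap exceeded the spread within either genotype. The log2 level fell by 0.25 (SE 0.051, 95% interval -0.37 to -0.12; limma, Benjamini-Hochberg adjusted p = 0.0124). On the linear scale it fell by 15.7%.
Hdac8, an X-linked deacetylase whose known substrates include the cohesin subunit Smc3, was the dimmest of the 10. It read 5.18, 5.28 and 5.28 in Sirt1-/- cells against 5.25, 5.31 and 5.31 in Sirt1+/+ cells. The genotypes overlapped, and the log2 change of -0.04 had a 95% interval of -0.16 to 0.08 (limma, Benjamini-Hochberg adjusted p = 0.615). Its level lay below the median level of all genes, 5.83, where background limits a measured change.

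**Figure D2:**
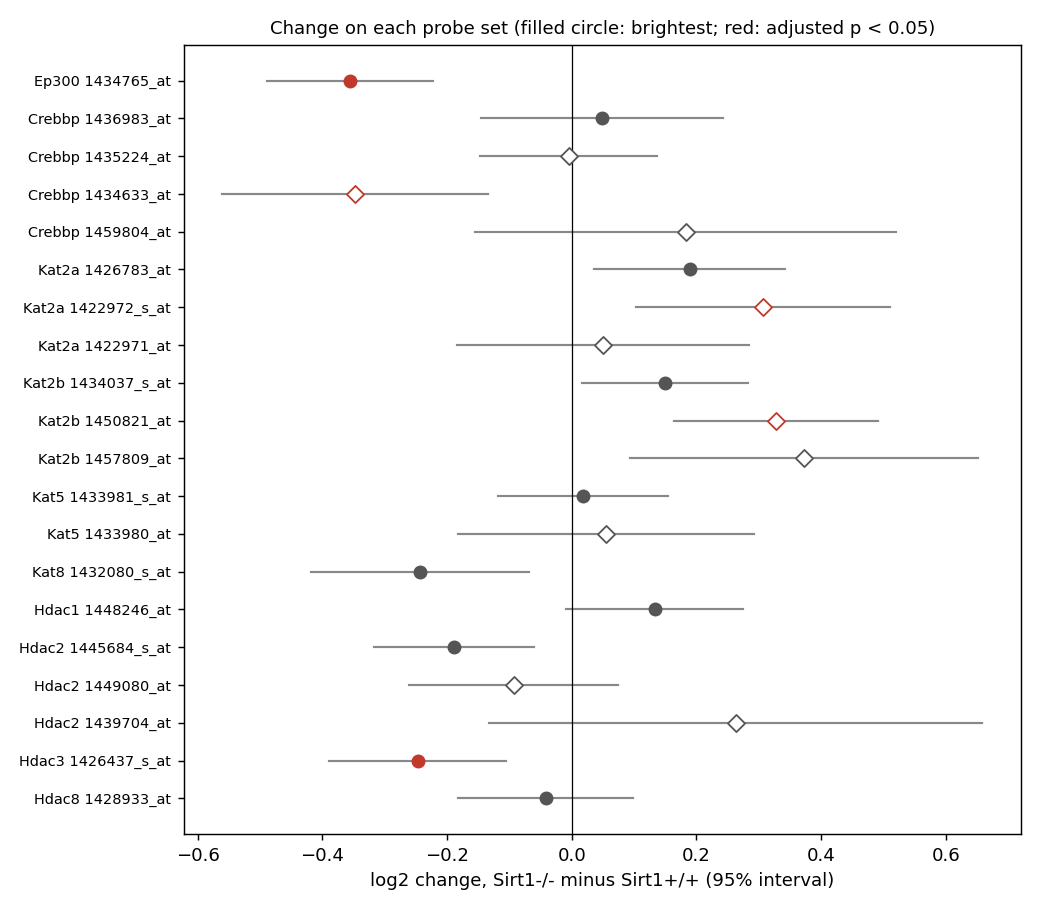
Log2 change, Sirt1-/- minus Sirt1+/+, with its 95% interval (horizontal axis) for all 20 probe sets of the 10 genes, from limma over all 45037 probe sets; filled circles are the brightest probe set of a gene, open diamonds the others, and red marks an adjusted p under 0.05 in that fit. The probe sets of Kat2b lie on one side of 0, whereas those of Crebbp and Hdac2 lie on both.

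Over all 45037 probe sets, where more tests are adjusted together, Ep300 and Hdac3 still passed (limma, Benjamini-Hochberg adjusted p = 0.00521 and 0.0283). The brightest probe sets of Hdac2 and Kat8 did not (limma, Benjamini-Hochberg adjusted p = 0.0521 and 0.0629). The plot of changes by probe set shows these 4 with intervals below 0.

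Within each array, the difference between 2 related genes removes what that array adds to both, so 4 pairs were compared this way. The Hdac1 minus Hdac2 difference was -1.54, -1.46 and -1.55 in Sirt1-/- cells against -1.84, -1.83 and -1.84 in Sirt1+/+ cells. It was higher by 0.32 (SE 0.030) in Sirt1-/-, with 3 of 3 arrays above all Sirt1+/+ arrays (exact two-sided permutation test, p = 0.1, adjusted over the 4 pairs 0.133). The separation and its p were fixed in advance, since Hdac1 was higher and Hdac2 lower on every Sirt1-/- array. They add no evidence to the results of the 2 genes. Averaging probe sets, the dim one of Hdac2 included, reduced that difference to 0.14. The Ep300 minus Crebbp difference was 0.54, 0.66 and 0.59 in Sirt1-/- against 1.18, 0.91 and 0.91 in Sirt1+/+, lower by 0.40 in Sirt1-/- (exact permutation test, p = 0.1, adjusted 0.133).
The Kat5 minus Kat8 difference was -0.02, 0.02 and 0.01 in Sirt1-/- against -0.17, -0.23 and -0.36 in Sirt1+/+, higher by 0.26 in Sirt1-/- (exact permutation test, p = 0.1, adjusted 0.133). Kat2a minus Kat2b, at -1.34, -1.35 and -1.29 in Sirt1-/- and -1.32, -1.50 and -1.28 in Sirt1+/+, overlapped between genotypes (difference 0.04, SE 0.069; exact permutation test, p = 0.9). No pair passed, and none could, since the exact permutation test of 3 against 3 arrays cannot go below p = 0.1. The Ep300 minus Crebbp difference also rests on the probe set taken for Crebbp, since 1434633_at fell by 0.35, about as much as Ep300. The sign of such a difference on one array depends on the probes and says nothing of which gene is more abundant.

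**Figure D3:**
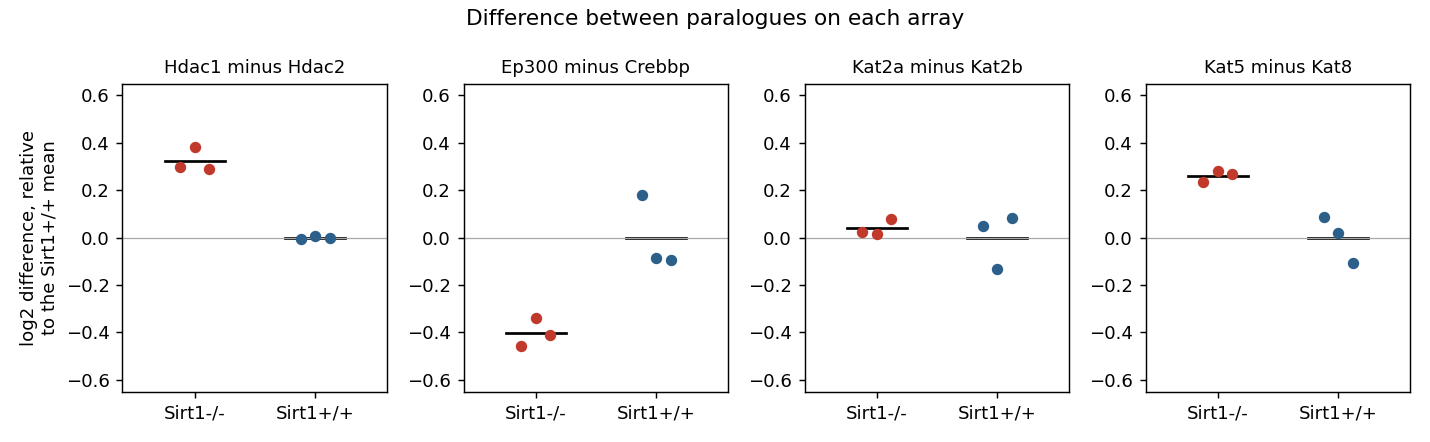
Log2 difference between paired genes on each array, relative to the Sirt1+/+ mean of that pair (vertical axis), with Sirt1-/- arrays in red and Sirt1+/+ arrays in blue and lines at the means (n = 3). The genotypes are apart for Hdac1 minus Hdac2, Ep300 minus Crebbp and Kat5 minus Kat8, and overlap for Kat2a minus Kat2b.

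The genes that work with these enzymes were taken from 11 lists of other acetyltransferases and deacetylases, complex subunits, acetyl readers and enzymes of acetyl-CoA supply. Of 117 genes listed 110 were measured, 24 rose and 21 fell, or 40.9% called, with a median log2 change of 0.01. Of the 110, 109 are among the brighter genes, of which 44.8% were called. The groups did not overlap for 73 of the 110, near the 62.5% of the brighter genes without overlap.

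Other acetyltransferases changed in both directions. Of 9 measured, 3 rose, 4 fell and 2 did not pass (median log2 change -0.18). Ncoa1, a nuclear receptor coactivator, had log2 levels of 7.82, 7.85 and 7.80 in Sirt1-/- cells against 8.65, 8.69 and 8.68 in Sirt1+/+ cells. It fell by 0.85 (SE 0.044; limma, Benjamini-Hochberg adjusted p = 8.18e-05), and by 0.64 on its second probe set. The MYST enzyme Kat6b fell by 0.51, with 9.12, 9.16 and 9.13 in Sirt1-/- against 9.63, 9.60 and 9.72 in Sirt1+/+. Gtf3c4, a subunit of the RNA polymerase III factor TFIIIC, rose by 0.50, and the circadian regulator Clock rose by 0.35. The members of the class II and IV deacetylases gave 2 that rose and 1 that fell of 7 (median 0.15). Hdac4, a class IIa enzyme that shuttles between nucleus and cytoplasm, rose by 0.57, with 0.09 on each of its other probe sets, which did not pass. Hdac7 rose by 0.29, and the tubulin deacetylase Hdac6 fell by 0.27.

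The corepressor complexes that hold Hdac1 and Hdac2 had members that changed both ways, and their largest rises were in genes of chromosome 8. Of 14 Sin3 genes 3 rose and 3 fell (median -0.07). Sin3b, a scaffold of the complex, rose by 0.84 with 2 more probe sets at 0.89 and 0.91. Sap30 rose by 0.26, and Ing1, a reader of methylated histone H3, and Suds3 fell by 0.35 and 0.34. All 3 that rose lie on chromosome 8. Without its genes 0 of the Sin3 list rose in limma on the brightest probe sets (1 was higher at an unadjusted p under 0.05) and 2 fell. A dimmer probe set of Arid4b, a gene of chromosome 13, rose by 0.43 (limma over all probe sets, Benjamini-Hochberg adjusted p = 0.0158), and its others did not pass. Of 10 NuRD genes 3 rose and 3 fell (median -0.00056). Gatad2a rose by 0.78 and is on chromosome 8, Cdk2ap1 and Mta1 rose by 0.31 each, and the remodeller Chd3 fell by 0.37. Of 9 CoREST and MiDAC genes 1 rose and 4 fell (median -0.09). Kdm1a, the histone demethylase of CoREST, had log2 levels of 11.47, 11.54 and 11.49 in Sirt1-/- cells against 11.97, 11.93 and 11.92 in Sirt1+/+ cells. It fell by 0.44 (limma, Benjamini-Hochberg adjusted p = 0.000785), and by 0.46 on its other probe set. The scaffold Rcor2 fell by 0.38 and Hmg20b by 0.30. Gse1, on chromosome 8, rose by 1.36 on its brightest probe set and read 0.09 on one of nearly the same brightness.

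Of the NCoR and SMRT genes that go with Hdac3, 3 were measured and 0 were called in limma, with Tbl1xr1 at an unadjusted p under 0.05. The log2 changes were -0.26 for Gps2, -0.03 for Tbl1x and 0.11 for Tbl1xr1. For Tbl1xr1, 3 dimmer probe sets rose by 0.38, 0.59 and 0.76, and for Tbl1x 1 rose by 0.39.

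Among the acetyltransferase complexes, SAGA and ATAC, which hold Kat2a and Kat2b, had 7 genes that rose and 3 that fell of 22 measured (median 0.08). Tada1 fell by 0.98, with levels of 4.92, 5.13 and 5.50 in Sirt1-/- against 6.06, 6.10 and 6.33 in Sirt1+/+. The Sirt1-/- levels of Tada1 lay below the median of all genes. The deubiquitinase module subunit Atxn7 fell by 0.52, Eny2 of the same module rose by 0.50, and Sgf29, a reader of methylated histone H3, rose by 0.38. Of 15 NuA4 genes, which go with Kat5, none rose on its brightest probe set (1 was higher at an unadjusted p under 0.05). In limma 2 fell: Brd8 by 0.28 and the ATPase Ruvbl1 by 0.18 (median -0.02). Dimmer probe sets of Meaf6, Epc1 and Ep400 rose by 0.44, 0.52 and 0.33 (limma over all probe sets, Benjamini-Hochberg adjusted p = 0.00326, 0.0422 and 0.0170). The remaining dimmer ones of Epc1 and Ep400 did not pass. The 4 dimmest of the Brd8 probe sets read between 0.03 and 0.29 and did not pass. Of 11 MSL and NSL genes, which go with Kat8, 3 rose and 1 fell (median 0.12), a share called of 36.4% against 44.8% of the brighter genes. Ogt, which attaches N-acetylglucosamine to proteins, had log2 levels of 9.96, 10.04 and 10.07 in Sirt1-/- against 10.61, 10.56 and 10.58 in Sirt1+/+, and fell by 0.56. Kansl3 rose by 0.37, Msl3 by 0.34 and Hcfc1 by 0.24.

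The BET readers Brd2 and Brd3 had log2 changes of 0.05 and -0.13, and neither passed (limma, Benjamini-Hochberg adjusted p = 0.606 and 0.108), though Brd3 had an unadjusted p of 0.0404. Of 8 genes of acetyl-CoA supply 2 rose: Acss2, which makes acetyl-CoA from acetate, by 0.34, and the citrate carrier Slc25a1 by 0.29. For the genes of these lists named as changed on their brightest probe sets, the adjusted p in limma with Benjamini-Hochberg adjustment was at most 0.0362, the value for Hdac7.

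**Figure D4:**
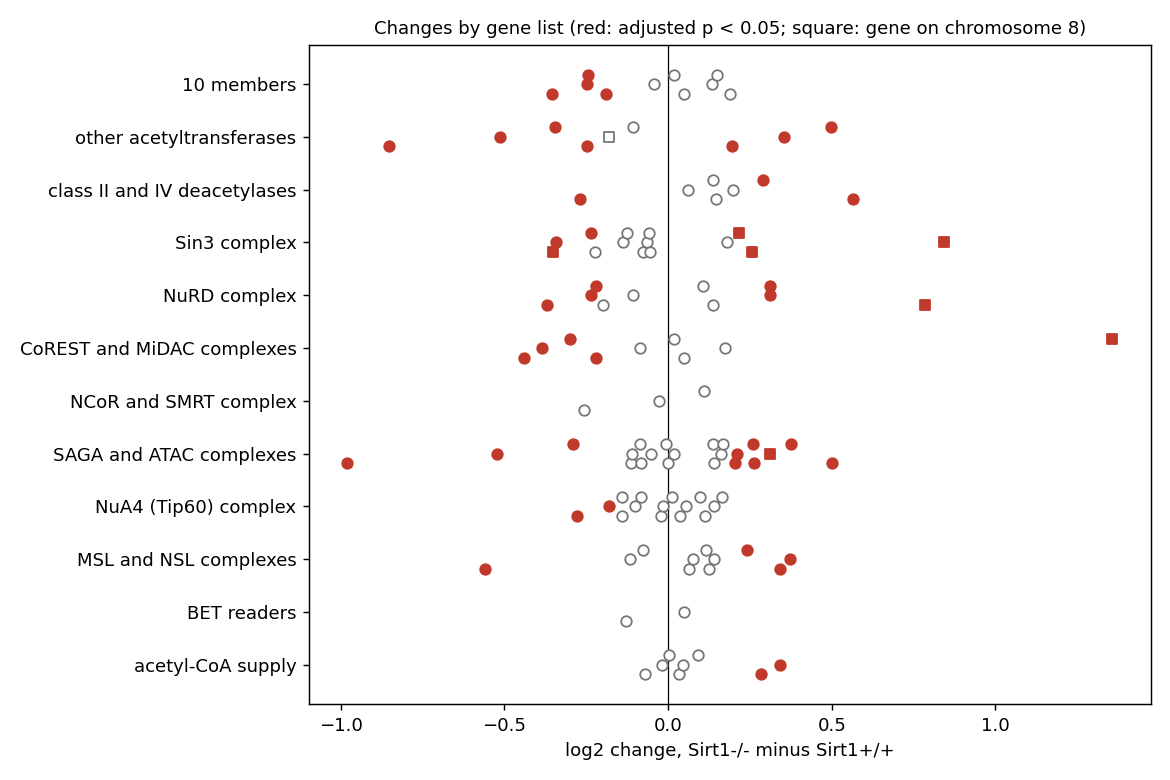
Log2 change, Sirt1-/- minus Sirt1+/+ (horizontal axis), of the 10 enzymes and of the genes of 11 lists, on the brightest probe set of each; filled red marks an adjusted p under 0.05 in limma and squares mark genes of chromosome 8. The 10 enzymes lie between -0.36 and 0.19, and the 3 points furthest to the right, Gse1, Sin3b and Gatad2a, are genes of chromosome 8.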

How the data were processed

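The authors deposited log2 levels of 45101 probe sets on 6 arrays, and the submitters' processing notes name Partek 6.5 and RMA for them. The scale was read from their range, and the settings of RMA are not stated in the labels. RMA summarises probes after quantile normalisation and compresses changes of dim probe sets.

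Apart from 64 controls, 10092 probe sets were left out of the fit over genes, 9160 with no symbol and 932 with several. This left 34945 for 18193 genes. Without a filter, limma (version 3.58.1, R version 4.3.3; lmFit, eBayes, two-sided) compared genotypes with Benjamini-Hochberg adjustment at 0.05. Precision is limited by the 3 arrays a genotype. In simulated data with 18193 genes, 12% of changes of 0.25 were recovered, 74% of 0.5 and 98% of 1, with 5 false calls. These shares hold for the simulated settings only. They are not rates for the 10 enzymes, of which Hdac2 was called at a log2 change of -0.19. Gene lists were described by counts without a set test, and other settings are given in the closing section.

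The enzymes and lists were chosen with earlier results of these data known. Of each list up to 4 called genes with the largest change were named, and all measured genes of lists of 5 or fewer. Chromosomes came from RefSeq on GRCm38.p6, where 18031 genes matched.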

Additional observations from a re-analysis of the deposited data

How the results depend on the processing

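Ep300 kept its fall and its call under all 15 other settings (log2 change -0.37 to -0.33), and Hdac3 under 14, losing it at an adjusted p under 0.01 (0.0124). The count of the 10 enzymes called lower, 4 as reported, was 2 with arrays centred on their medians and 1 at an adjusted p under 0.01. Leaving out single arrays gave 2 to 3 lower and 0 to 1 higher. The count called higher, 0 as reported, was 1 with repeated quantile normalisation (Kat2a), 1 with averaged probe sets (Kat2b) and 1 without moderation (Kat2b). It was 3 in a refit without the dimmest 40% of genes, where 2549 of the 10916 genes were called higher and 3330 lower. It was also 3 with an intensity trend and robust settings, where 2722 of 18193 were higher and 3727 lower. Kat2a, Kat2b and Hdac1 were the 3 in both. The shares given above for the brighter genes are from the fit over all 18193, so they are no background for these counts. At an adjusted p under 0.01 there were 1347 genes higher and 2009 lower, against 2270 and 3192 as reported, and the list genes gave 15 higher and 13 lower, against 24 and 21.

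Small changes turned sign: Crebbp to -0.030 with averaged probe sets and to -0.031 without replicate 1 of Sirt1+/+ (0.098 at most when single arrays were left out). Kat5 turned to -0.0081 without replicate 3 of Sirt1-/- (0.045 at most). Kat2a minus Kat2b was -0.10 with averaged probe sets, and -0.026 to 0.081 when single arrays were left out, with the negative value without replicate 2 of Sirt1+/+. The cause was not tested.

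The labels do not say whether like-numbered arrays share more than a number. Their deviations correlated at 0.0515, -0.0865 and 0.198 across genes, and 1 of 3 Sirt1-/- arrays correlated best with its own number. In order of replicate, poly-A controls read 7.55, 7.59 and 7.73 in Sirt1+/+ and 7.71, 7.78 and 7.97 in Sirt1-/-. Hybridisation controls and the mean level of the 10 enzymes also rose with the number in both genotypes, whereas array medians did not. A shared order of processing was not tested. With the replicate number as a block, 3 enzymes were called lower and 0 higher in limma, with 1908 genes higher and 2792 lower. Without the genes of chromosome 8, a setting chosen after seeing the data, 18 list genes rose and 20 fell.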
